A study of Mus musculus with 12 samples.

Results

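The strain by Dmrt1 genotype interaction asks, for each probe set, whether removing Dmrt1 changed the signal by a different amount in the 129Sv strain than in the B6 strain. It is the change from wild type to knockout in 129Sv minus the same change in B6, on the log2 scale, and it is called the difference of effects here. All 12 arrays of the series entered it, in 4 groups of 3: 129Sv wt, 129Sv dmrt1, B6 wt and B6 dmrt1. A positive difference means that the knockout testes of 129Sv stood higher, relative to their own wild type, than those of B6 did. Probe sets that reached a log2 of 4, which is an intensity of 16, on 3 arrays or more were tested, 24820 of the 45101 on the array after control probe sets were set aside, and 21900 of these named a single gene (12727 genes).

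The samples were whole testes of mouse embryos at stage E15.5, either wild type or dmrt1 knockout, from the 129Sv or the B6 strain. The series describes the removal of Dmrt1 as conditional, but the sources used here do not name the driver or the allele, nor whether a group pools animals. The growth protocol gives P28 for the embryos, and the stage of the labels was followed. Titles differ between the arrays of a group, yet nothing says that each array is a separate animal, so the p-values reflect only how these arrays vary, which may be technical.

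Dmrt1 encodes a transcription factor with a DM domain, a DNA-binding fold named after doublesex and mab-3, and in the fetal testis it is present in germ cells and in the Sertoli cells that surround them. At this stage male germ cells leave the cell cycle, lose the expression of pluripotency genes and switch on the machinery that silences transposons, which includes PIWI proteins, their short guide RNAs (piRNAs) and de novo DNA methylation. Germ cells of 129 strains are known for forming testicular teratomas, and B6 germ cells are not.

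Of the 24820 probe sets, 74 (0.298%) passed an adjusted p of 0.05 in the limma fit, 68 (0.274%) with a positive difference and 6 (0.0242%) with a negative one. Unadjusted p-values under 0.05 were found for 3251 probe sets, 1833 above 0 and 1418 below. For 60.6% of all probe sets the 95% interval of the difference lay within 1 log2 unit of 0. The median difference over all probe sets was -0.005, its median standard error was 0.28, and the smallest difference that passed was 0.77 in size. Leaving out 1 array at a time gave 34 to 141 calls. The count moved by over 1.5 times without 129Sv wt replicate 1 (34) or 3 (34), 129Sv dmrt1 replicate 2 (43), B6 wt replicate 2 (40) or 3 (44), and B6 dmrt1 replicate 1 (141), 2 (49) or 3 (113).

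**Figure D1:**
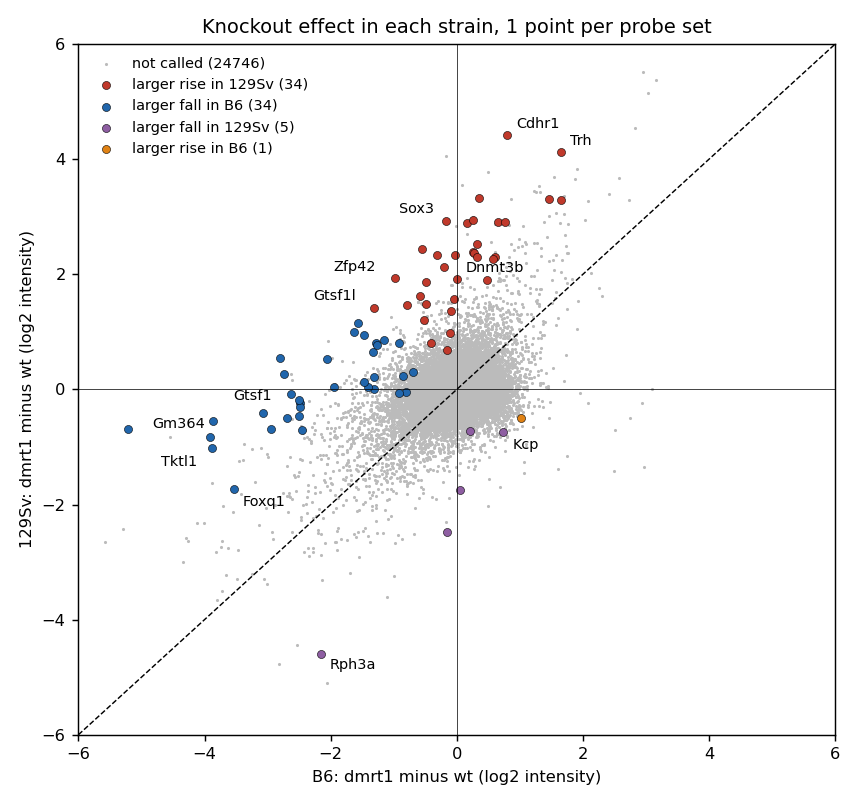
Each point is 1 of the 24820 probe sets tested. The x axis is the knockout effect in B6 and the y axis that in 129Sv, both as the log2 difference of dmrt1 minus wt, and the dashed line marks equal effects. The 68 coloured points above the line have the more positive effect in 129Sv, and 6 lie below it. Of the 68, 34 had a larger rise in 129Sv and 34 a larger fall in B6.

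The calls fell into a pair of equally large patterns. Where the larger of the 2 knockout effects was a rise in 129Sv, 34 probe sets were called, for 29 genes. All 34 also passed in 129Sv alone (background 5.24%) and 4 in B6 alone (background 4.61%), which the choice of the pattern partly fixes. Their median effect was 2.30 in 129Sv and -0.02 in B6. Where the larger effect was a fall in B6, again 34 probe sets were called, for 24 genes, with median effects of 0.02 in 129Sv and -2.002 in B6. The other 6 were 5 with a larger fall in 129Sv and 1 with a larger rise in B6. The first pattern counted 17 to 54 probe sets, and the second 15 to 61, when single arrays were left out.

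The strains also differed before the knockout, and more in the second pattern. In wild-type testes 13.6% of all probe sets differed between strains, against 10 of the 34 with the larger rise in 129Sv (8 of them higher in 129Sv) and 21 of the 34 with the larger fall in B6 (19 higher in 129Sv). In knockout testes 30% of all probe sets differed between strains, and all 68 of these did, each higher in 129Sv. These strain comparisons use the same arrays as the interaction, so they describe what the differences are made of.

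Dmrt1 itself fell in both strains. Its intensity in 129Sv wt was 1180, 924 and 1010, and in 129Sv dmrt1 it was 173, 145 and 181. In B6 wt it was 795, 1090 and 1070, and in B6 dmrt1 it was 86.4, 64 and 72.9. The wild types overlapped, whereas every 129Sv knockout array lay above every B6 knockout array. The remaining signal was 16% of wild type in 129Sv and 7.58% in B6, and the exact permutation test (two-sided) gave 0.1 in each strain, its lower limit for groups of 3. The difference of effects was 1.08 ± 0.24 (SE, adjusted p = 0.0874), so it did not pass over all probe sets. It passed when each gene was reduced to 1 probe set (adjusted p = 0.045), where the adjustment ran over a different set, 12726 genes. A single probe set names Dmrt1, and no source used here names the deleted stretch, so the residual signal is no measure of remaining protein.

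Summed germ cell and somatic markers differed between groups. In these whole testes, fewer cells of a type and less RNA per cell cannot be told apart. The summed intensity of 6 germ cell markers tested of 8 listed was 15000 to 15600 in 129Sv wt, 14100 to 17900 in 129Sv dmrt1, 11300 to 12700 in B6 wt and 6150 to 9840 in B6 dmrt1. The B6 knockout arrays thus lay below the other groups. Of the 6, Taf7l alone had a called difference. All 6 are also members of gene lists given below. Ddx4, Mael and Rnf17 are in the piRNA list, and Dazl, Dnd1 and Taf7l in that of prospermatogonial regulators. The sum is thus no reading separate from those lists. The B6 effects were -0.46 for Ddx4, -0.13 for Dazl, -1.43 for Dnd1, -0.96 for Mael, -1.31 for Taf7l and 0.50 for Rnf17. Ddx4, a germ cell RNA helicase, read 3310, 4520 and 4620 in 129Sv dmrt1 and 2770, 2300 and 1700 in B6 dmrt1, against 4060, 3850 and 4220 in 129Sv wt and 3060, 2860 and 3220 in B6 wt, with a difference of 0.48 ± 0.23 (SE, adjusted p = 0.384). The part of this shift in the gene differences below was not tested.

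No probe set chosen for the Sertoli (20 tested), fetal Leydig (5), peritubular and interstitial (10), endothelial (11), macrophage and leukocyte (13) or red blood cell (5) lists was called. Differences were below 0 in 11 of 11 endothelial, 5 of 5 fetal Leydig, 5 of 5 red blood cell, 7 of 10 peritubular and interstitial, 11 of 13 macrophage and leukocyte and 11 of 20 Sertoli genes, with medians of -0.44, -0.48, -0.41, -0.16, -0.22 and -0.10. The macrophage and leukocyte median was 0.08 without B6 wt replicate 3 and -0.52 without B6 wt replicate 2, and the Sertoli median was 0.01 without B6 dmrt1 replicate 3. Other somatic lists went the other way, with 5 of 7 ovarian somatic and 5 of 6 neuron and skeletal muscle genes above 0 and medians of 0.32 and 0.56. The neuron and skeletal muscle sums were instead highest in B6 dmrt1 (649 to 697). They were 351 to 436 in 129Sv dmrt1, 390 to 593 in B6 wt and 221 to 259 in 129Sv wt. Of its 6 genes, 3 lay under an intensity of 16 on every B6 dmrt1 array. Summed ovarian somatic signal was 3980 to 4180 in 129Sv dmrt1, above 2530 to 2630 in 129Sv wt, 2480 to 2860 in B6 wt and 2120 to 2630 in B6 dmrt1. Much of that sum was Lef1, itself called in this contrast, with means of 2950, 1690, 1660 and 1250 in the same order. The part of these lists in the gene differences was not tested. Summed endothelial signal was 1510 to 1870 in 129Sv dmrt1 and 2500 to 2900 in B6 dmrt1, and 1990 to 2130 and 2170 to 2450 in the wild types. For the fetal Leydig list, the sums were 17400 to 18700 and 22600 to 31100 in the knockouts, and 20700 to 22200 and 21300 to 24400 in the wild types. The Sertoli sums were 33100 to 38400 in 129Sv dmrt1, below the other groups, and 40200 to 46700 in B6 dmrt1, 41500 to 45000 in 129Sv wt and 44900 to 46300 in B6 wt. Sox9 and Amh, defining markers of Sertoli cells, were present in all groups, Sox9 at 830 ± 81.4 in 129Sv wt and 973 ± 99.2 in B6 wt (SD, n = 3).

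RNA quality also differed between arrays. For Actb, the 3′ probe set divided by the 5′ one, a ratio that rises as RNA degrades, gave 6.3 in B6 dmrt1 replicate 3 and 5.24 in 129Sv dmrt1 replicate 1, 3.91 in 129Sv wt replicate 2, and 1.99 to 2.79 elsewhere. Without the first 2 of these arrays 124 probe sets were called, 58 of them among the 74. B6 dmrt1 replicate 3 had the lowest Ddx4, Dazl and Mael of its group (1700, 1270 and 2220). It had the highest Dnd1 and Taf7l (304 and 36.7).

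Among genes with the larger rise in 129Sv, the de novo DNA methyltransferase gene Dnmt3b was called on both of its probe sets. It read 1130, 961 and 953 in 129Sv wt and 3820, 4220 and 3430 in 129Sv dmrt1, while B6 read 770, 738 and 734 in wt and 831, 811 and 622 in dmrt1. Every 129Sv knockout array was over 3-fold above every 129Sv wild-type array, and the B6 groups overlapped. The rise was 3.77-fold in 129Sv (log2 effect 1.91 ± 0.13, SE), the B6 effect was 0.00 ± 0.13, and the difference was 1.91 ± 0.18 (SE, adjusted p = 0.00066). Its other probe set gave 2.72 ± 0.27 (SE, adjusted p = 0.00079). Dnmt1, the maintenance methyltransferase, had a difference of -0.00 ± 0.13 and Uhrf1, its recruiting partner, 0.06 ± 0.13.

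Cdhr1, a cadherin best known from photoreceptors, had the largest difference among the called genes with a name. It read 10.8, 14.9 and 11 in 129Sv wt, near the bottom of the scale, and 320, 244 and 217 in 129Sv dmrt1. In B6 it read 7.39, 11.6 and 15.4 in wt and 21.3, 20.3 and 16.2 in dmrt1. The 129Sv rise was at least 16.1-fold, taking a log2 of 4 as the floor for the wild type, and the difference was 3.61 ± 0.38 (SE, adjusted p = 0.00114). Trh, the precursor of thyrotropin-releasing hormone, rose in both strains but further in 129Sv, from 12.1, 9.75 and 9.08 to 220, 232 and 110, against 8.12, 13.3 and 8.46 to 25.7, 35.9 and 30.8 in B6 (difference 2.46 ± 0.42, SE, adjusted p = 0.0256).

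Transcription factors of embryonic and neural cells were part of this pattern. Sox3, an X-linked relative of Sox2, read 23.6, 23 and 25.8 in 129Sv wt and 302, 204 and 101 in 129Sv dmrt1, and stayed between 9.8 and 18.4 on all 6 B6 arrays. The difference was 3.10 ± 0.48 (SE, adjusted p = 0.0129). Pou3f1, a POU factor of the primed epiblast and of spermatogonia, went from 45.1, 50.8 and 57.4 to 390, 411 and 345 in 129Sv and from 31.7, 38 and 20.2 to 50.8, 43.2 and 42.5 in B6. That is a 7.49-fold change against 1.57-fold, with a difference of 2.26 ± 0.32 (SE, adjusted p = 0.00845). Zic5, a zinc finger gene of the early nervous system, read 62.8, 76.2 and 53.3 in 129Sv dmrt1 and at most 15.1 on the other 9 arrays (difference 2.99 ± 0.40, SE, adjusted p = 0.00679), and its second probe set was also called (2.33). Of its 4 group means 3 lie under a log2 of 4, and with all values floored there its difference was 1.99, still called.

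Pluripotency genes were represented by Zfp42 and Fbxo15. Zfp42, also known as Rex1 and a marker of naive embryonic stem cells, read 225, 246 and 261 in 129Sv wt and 945, 1110 and 770 in 129Sv dmrt1. In B6 it read 231, 334 and 307 in wt and 235, 164 and 80.2 in dmrt1, so its effects pointed opposite ways, 1.94 ± 0.30 and -0.98 ± 0.30, though the B6 one did not pass (adjusted p = 0.0884). The difference was 2.91 ± 0.43 (SE, adjusted p = 0.0103). Fbxo15, an F-box gene of embryonic stem cells, went from 368, 462 and 363 to 1770, 1860 and 2260 in 129Sv and from a mean of 334 ± 70.9 (SD, n = 3) to 534, 496 and 478 in B6. No array of either knockout overlapped its own wild type, and the difference was 1.69 ± 0.24 (SE, adjusted p = 0.00845).

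Signalling genes of the pattern included Crabp2 and Lef1. Crabp2, which carries retinoic acid to its nuclear receptors, rose 7.53-fold in 129Sv, from 217, 291 and 372 to 2180, 1830 and 2520, against 271, 405 and 339 in B6 wt and 435, 515 and 808 in B6 dmrt1 (difference 2.15 ± 0.35, SE, adjusted p = 0.0184). Lef1, a nuclear effector of Wnt signalling kept in the ovarian somatic list, was tight in 129Sv, 1660, 1690 and 1710 against 2980, 2990 and 2870. In B6 it read 1610, 1450 and 1930 in wt and 1430, 1260 and 1070 in dmrt1, giving a difference of 1.21 ± 0.17 (SE, adjusted p = 0.00845). Of the other members of that list, 6 were tested and none was called.

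Further genes of the pattern were Oit1, Gbp3, Pdzk1, Skor1 and Gtsf1l. Oit1 read 112, 113 and 105 in 129Sv dmrt1 and at most 13.4 elsewhere (difference 2.97 ± 0.33, SE, adjusted p = 0.00155). Gbp3, an interferon-inducible guanylate-binding protein, read 88.7, 111 and 92.5 in 129Sv dmrt1 and 11.1 to 21.8 elsewhere (2.37 ± 0.35, adjusted p = 0.0103). Pdzk1, a PDZ domain scaffold, rose in both strains, 9.95-fold in 129Sv and 2.76-fold in B6, as did the corepressor gene Skor1, 9.80-fold and 3.15-fold, and the differences were 1.85 and 1.64 (adjusted p = 0.0182 and 0.0207). Gtsf1l, a paralog of the piRNA factor Gtsf1, rose in 129Sv from 34.8, 36.6 and 35.2 to 108, 91.1 and 87.7 and fell in B6 from 39.5, 76 and 36.6 to 20.7, 23.9 and 14.6. Both of its effects passed, with opposite signs, and the difference was 2.73 ± 0.38 (SE, adjusted p = 0.00845).

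Among the genes of the first pattern, several lost their call when a single array was left out. The differences in brackets are those of the refits in which the call was lost. Sox3 lost its call without 129Sv wt replicate 1 or 129Sv dmrt1 replicate 2 (differences of 3.08 and 3.02), and Trh without any 129Sv wt array, 129Sv dmrt1 replicate 1 or 2, or B6 wt replicate 2 or 3 (2.24 to 2.58). Crabp2 lost it without 129Sv dmrt1 replicate 3, 129Sv wt replicate 1, B6 dmrt1 replicate 2, or B6 wt replicate 2 or 3 (1.95 to 2.14), Pdzk1 without 129Sv wt replicate 1 or 3 or B6 wt replicate 2 or 3 (1.77 to 1.80), and Skor1 without any 129Sv dmrt1 array, 129Sv wt replicate 3, B6 dmrt1 replicate 2 or B6 wt replicate 2 (1.57 to 1.68). With the probe sets of a gene averaged, the differences were smaller for Sox3 (1.53), Zic5 (1.80), Pou3f1 (1.09) and Skor1 (0.87), all still called.

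**Figure D2:**
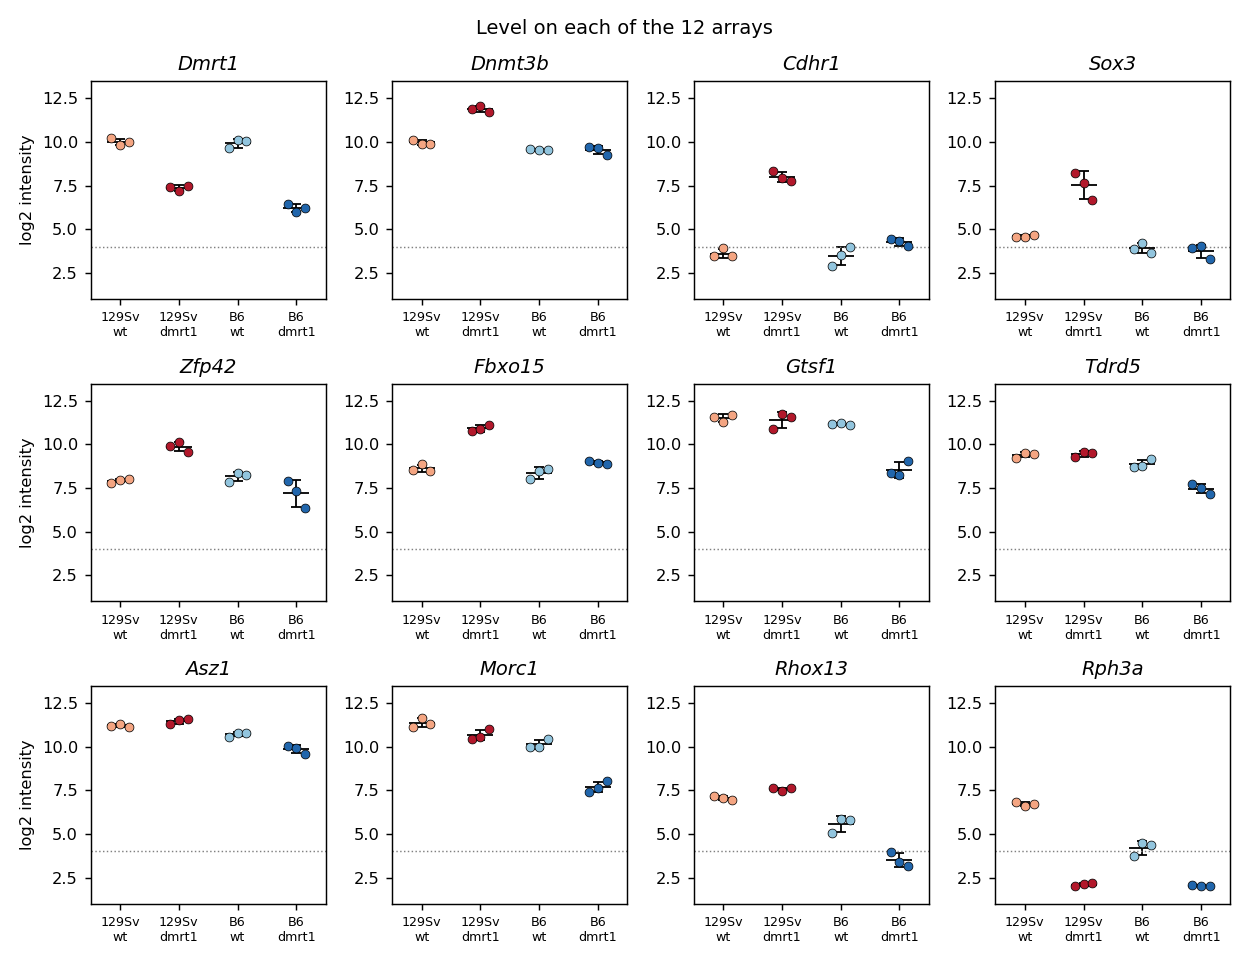
The log2 intensity of 12 genes on each of the 12 arrays, 1 point per array, with the mean and SD of each group of 3 and a dotted line at a log2 of 4. Dnmt3b, Sox3 and Cdhr1 are highest in 129Sv dmrt1 among the 4 groups drawn, and Gtsf1, Tdrd5 and Morc1 are lowest in B6 dmrt1.

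Of the 24 genes with the larger fall in B6, 6 were members of the lists: Gtsf1, Tdrd5 and Asz1 of the piRNA pathway, Morc1 of DNA methylation, and Rhox13 and Taf7l of the prospermatogonial regulators. Gtsf1, a cofactor through which PIWI proteins silence transposons in the nucleus, read 3000, 2460 and 3320 in 129Sv wt and 1910, 3490 and 3070 in 129Sv dmrt1. In B6 it read 2270, 2400 and 2230 in wt and 323, 302 and 532 in dmrt1. The 129Sv groups overlapped, while B6 fell 6.17-fold, and the difference was 2.54 ± 0.32 (SE, adjusted p = 0.00451). A second Gtsf1 probe set gave 2.66 ± 0.37 (SE, adjusted p = 0.00845). The name of the first marks it as one that may also bind related transcripts. Such marks are also in the names of the probe sets given for Foxq1, Zfyve27, Piwil4, Eras, Zbtb16, Dnmt1 and Dnmt3l.

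Another pair of piRNA genes was called. Tdrd5, a Tudor domain protein of germ granules, read 605, 727 and 714 in 129Sv wt and 613, 752 and 731 in 129Sv dmrt1, against 411, 440 and 570 in B6 wt and 209, 183 and 145 in B6 dmrt1. Its 129Sv effect was 0.03 ± 0.17 and its B6 effect -1.41 ± 0.17, a difference of 1.44 ± 0.24 (SE, adjusted p = 0.0246). Asz1, which anchors the same granules to mitochondria, read 2400, 2570 and 2280 in 129Sv wt, 2550, 2970 and 3060 in 129Sv dmrt1, 1550, 1760 and 1780 in B6 wt and 1050, 990 and 783 in B6 dmrt1. Its wild types differed between strains too (0.51, adjusted p = 0.015), and the difference of effects was 1.10 ± 0.17 (SE, adjusted p = 0.016).

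Morc1, an ATPase needed to silence transposons in male germ cells, was lower in both knockouts. It read 2300, 3270 and 2540 in 129Sv wt and 1400, 1500 and 2070 in 129Sv dmrt1, and 1030, 1020 and 1390 in B6 wt and 173, 197 and 263 in B6 dmrt1. The 5.46-fold fall in B6 passed and the 1.64-fold change in 129Sv did not (adjusted p = 0.0582), and the difference was 1.74 ± 0.28 (SE, adjusted p = 0.0185). In intensity units, however, the 129Sv change was the larger one, since its wild type started higher, and the same was so for Tktl1 and Nlrp14. For the other 71 of the 74 probe sets the sign was the same on both scales.

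Prospermatogonial genes in the pattern were Rhox13 and Taf7l, both X-linked. Rhox13, a germ cell homeobox gene, read 145, 132 and 124 in 129Sv wt, 201, 180 and 196 in 129Sv dmrt1, 33.8, 57.3 and 56.2 in B6 wt and a mean of 11.8 ± 3.3 (SD, n = 3) in B6 dmrt1. The 129Sv arrays lay above those of B6 in either genotype, and the difference was 2.58 ± 0.34 (SE, adjusted p = 0.00559). Taf7l, a germ cell subunit of the general transcription factor TFIID, read 132, 185 and 156, then 172, 164 and 214 in 129Sv wt and dmrt1, and 83.6, 83 and 84.4, then 35, 29.9 and 36.7 in B6 wt and dmrt1. The B6 fall was 2.48-fold and the difference 1.53 ± 0.25 (SE, adjusted p = 0.0207).

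Of the 24 genes with the larger fall in B6, 8 lie on the X chromosome in RefSeq's GRCm38.p6 table, which is 33.3%, against 3.53% of the 12702 genes tested that have a chromosome there. Among the 664 genes that fell in B6 at all the share was 6.93%, and among the 492 that fell in 129Sv it was 3.66%. The 8 were Rhox13, Taf7l, Tktl1, Gm364, Magea5, Dcaf8l, Nxf3 and 4930550L24Rik. This count was noticed in these data and is given as a description, with no test. Of the 29 genes with the larger rise in 129Sv, 2 were X-linked (Sox3 and 1700013H16Rik).

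The largest of these X-linked differences belonged to Gm364 and Tktl1. Gm364 read 302, 321 and 333 in 129Sv wt, 190, 218 and 248 in 129Sv dmrt1, 163, 191 and 221 in B6 wt and 9.49, 13 and 18.2 in B6 dmrt1, a fall of at least 11.9-fold in B6 against 1.47-fold (difference 3.31 ± 0.31, SE, adjusted p = 0.00066). Tktl1, a transketolase-like enzyme, read 909, 983 and 1020, then 343, 389 and 818 in 129Sv, and 343, 386 and 454, then 18.5, 25.6 and 39.3 in B6. Its fall was 14.8-fold in B6 and the difference 2.86 ± 0.44 (SE, adjusted p = 0.0125), with its other 2 probe sets at 2.21 and 2.09 and not called. Magea5, of a family of cancer-testis antigens, rose in 129Sv from 141, 236 and 203 to 420, 354 and 319 and fell in B6 from 56.5, 63.3 and 56.8 to 18.5, 23 and 22.3, and both effects passed (difference 2.41 ± 0.29, SE, adjusted p = 0.00286). 4930550L24Rik also passed in opposite directions, 0.81 and -0.91, with a difference of 1.72 ± 0.30 (SE, adjusted p = 0.0279). Dcaf8l read 115, 160 and 126 in 129Sv dmrt1 and 11, 13.7 and 18.2 in B6 dmrt1, with 58.2, 99.1 and 50.8 and 34.7, 48.8 and 47.8 in the wild types (2.62 ± 0.39, adjusted p = 0.0108).

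On autosomes, AU018091 went from 98, 90.9 and 105 to 17.3, 10.3 and 17.4 in B6 and from 42.7, 34.1 and 40.7 to 37.5, 47.2 and 59.2 in 129Sv. In wild type B6 was the higher strain for it, unlike 19 of the 21 probe sets of this pattern that differed there, and its difference was 3.02 ± 0.34 (SE, adjusted p = 0.00155). Foxq1, a forkhead transcription factor, fell in both strains, 3.33-fold in 129Sv and 11.6-fold in B6 (difference 1.80 ± 0.28, SE, adjusted p = 0.0146). Spag16, a protein of the sperm axoneme, read 16.4, 28.2 and 27.5 in 129Sv dmrt1 and 6.88, 5.97 and 5.54 in B6 dmrt1, with wild types at 11.4, 8.21 and 12.5 and 16.6, 24 and 14.8. Most of these values lie near or under an intensity of 16, and with all values floored there its difference of 2.71 became 0.76 and was not called. The probe set with the largest difference of all, 4.52, has no gene name here, and read 1270, 900 and 1460 in 129Sv dmrt1 and 25.6, 25.3 and 13.9 in B6 dmrt1.

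In the second pattern, Tdrd5 lost its call without 129Sv dmrt1 replicate 2 or 3, 129Sv wt replicate 1 or 3, B6 dmrt1 replicate 2, or B6 wt replicate 2 or 3 (1.30 to 1.49), and Asz1 under the same removals except B6 dmrt1 replicate 2 (1.05 to 1.09). Asz1 was also not called with its 2 probe sets averaged (1.45). Taf7l lost it without 129Sv dmrt1 replicate 3, 129Sv wt replicate 1 or 3, B6 dmrt1 replicate 2, or B6 wt replicate 2 or 3 (1.41 to 1.54), Morc1 without 129Sv wt replicate 1 or 3, B6 dmrt1 replicate 2 or B6 wt replicate 3 (1.59 to 1.70), Foxq1 without 129Sv wt replicate 1 or 3 (1.83 and 1.78, and 0.99 but called with its probe sets averaged), and Tktl1 without 129Sv wt replicate 1 (2.82). 4930550L24Rik lost it without 129Sv dmrt1 replicate 1 or 2, any 129Sv wt array, B6 dmrt1 replicate 2, or B6 wt replicate 2 or 3 (1.54 to 1.80).

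**Figure D3:**
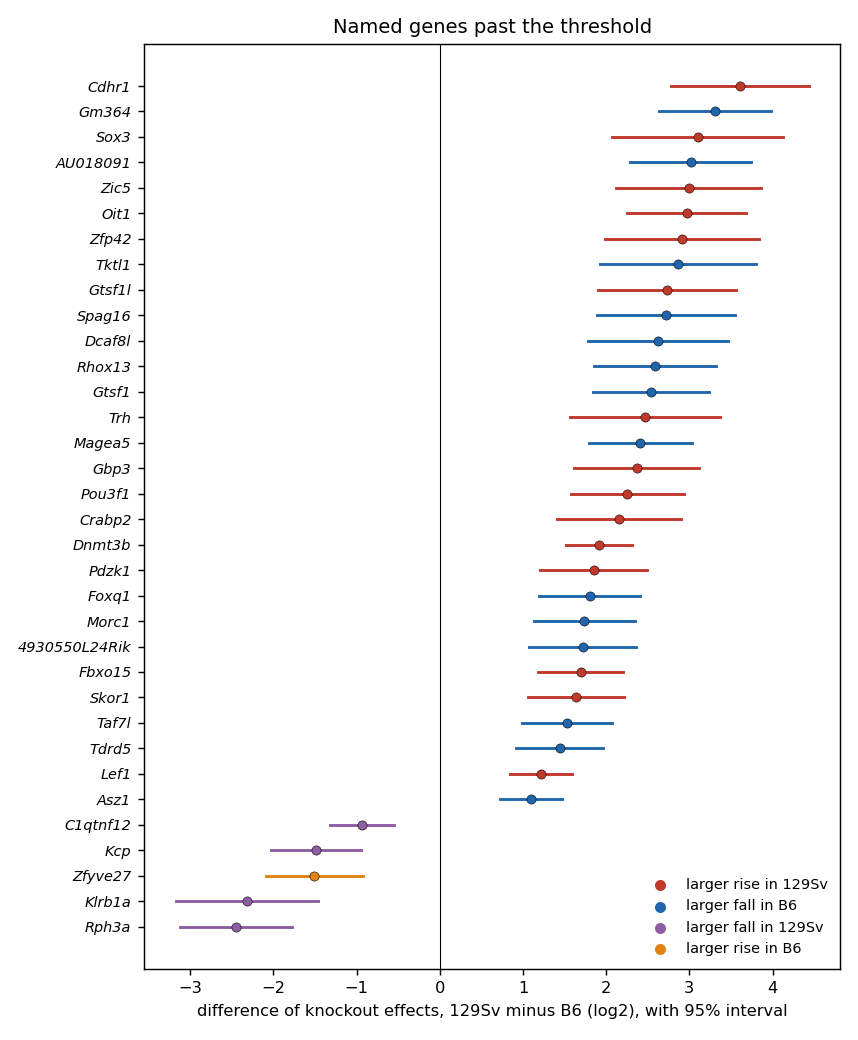
The difference of effects (129Sv minus B6, log2) of the 34 named genes that passed the threshold, each with its 95% interval and coloured by pattern. 29 genes lie above 0 and 5 below, from Cdhr1 at 3.61 to Rph3a at -2.45.

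Few genes went the other way. Rph3a, an effector of vesicle release in neurons, read 114, 96.3 and 104 in 129Sv wt and 3.97, 4.45 and 4.49 in 129Sv dmrt1, against 13.1, 22.6 and 20.7 in B6 wt and 4.26, 3.99 and 4.09 in B6 dmrt1. The knockouts met at one low level, and the strains differed in wild type by 2.51 (adjusted p = 8.29e-06), so the fall was at least 6.54-fold in 129Sv and the difference -2.45 ± 0.31 (SE, adjusted p = 0.00451). Klrb1a, a receptor of natural killer cells, showed the same shape, 74.6, 73.9 and 105 in 129Sv wt and 7.15 to 21.6 on the other 9 arrays (-2.32 ± 0.40, adjusted p = 0.0256). Kcp, a secreted modulator of BMP signalling, fell in 129Sv from 416, 397 and 372 to 272, 210 and 227 and rose in B6 from 306, 216 and 312 to 400, 546 and 440, with both effects past the threshold (-1.49 ± 0.25, adjusted p = 0.0243).

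The remaining named genes of this direction were less firm. C1qtnf12 read 1120, 1250 and 1190, then 764, 585 and 817 in 129Sv, and 1170, 1260 and 1220, then 1310, 1420 and 1490 in B6, a difference of -0.94 ± 0.18 (SE, adjusted p = 0.0493). It lost its call when any single array other than 129Sv dmrt1 replicate 3 or B6 dmrt1 replicate 1 was left out (-0.99 to -0.80). Zfyve27 was the only called probe set with a larger rise in B6, from 42.8, 44.4 and 36.4 to 69.1, 104 and 79.2 (-1.51 ± 0.27, adjusted p = 0.0329), and another of its 3 probe sets stood at 0.10. Zfyve27, Klrb1a and Kcp each lost their calls without 129Sv dmrt1 replicate 2 or 3, any 129Sv wt array, B6 dmrt1 replicate 2 or B6 wt replicate 2, and the first pair also without B6 wt replicate 3 (-1.57 to -1.35, -2.41 to -2.14 and -1.53 to -1.32). With probe sets averaged Rph3a had -1.44, still called, and Zfyve27 -0.59, not called. With 1 probe set per gene C1qtnf12 had -0.42 and was not called.

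Promoters are shown for 3 piRNA genes that fell in B6 and had a called difference, and for Dnmt3b, the de novo methyltransferase of the other pattern. The lines give the 150 bases before the RefSeq start site of Dnmt3b (chr2:153649299-153649448, plus strand), Gtsf1 (chr15:103430428-103430577, minus strand), Asz1 (chr6:18109062-18109211, minus strand) and Tdrd5 (chr1:156303349-156303498, minus strand) in GRCm38.p6, written 5′ to 3′ with each CpG, the site of DNA methylation, in capitals.
Dnmt3b: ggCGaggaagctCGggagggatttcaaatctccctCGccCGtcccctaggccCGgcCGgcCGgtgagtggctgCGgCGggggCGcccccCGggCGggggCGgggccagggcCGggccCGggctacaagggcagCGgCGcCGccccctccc
Gtsf1: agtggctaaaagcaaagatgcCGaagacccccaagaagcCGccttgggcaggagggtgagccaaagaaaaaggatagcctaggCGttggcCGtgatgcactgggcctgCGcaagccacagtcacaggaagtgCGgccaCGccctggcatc
Asz1: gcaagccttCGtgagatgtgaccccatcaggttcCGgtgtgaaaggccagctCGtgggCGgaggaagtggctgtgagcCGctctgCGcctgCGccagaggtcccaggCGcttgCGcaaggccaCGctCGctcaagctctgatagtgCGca
Tdrd5: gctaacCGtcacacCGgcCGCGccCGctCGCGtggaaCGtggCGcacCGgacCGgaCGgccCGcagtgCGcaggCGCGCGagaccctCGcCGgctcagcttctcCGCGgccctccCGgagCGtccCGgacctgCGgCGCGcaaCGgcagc
Tdrd5 has 28 CpG in this window, Dnmt3b 18, Asz1 12 and Gtsf1 7. Of the 58 called genes with a single symbol, 43 had a promoter in the RefSeq table. CpG were counted in the 250 bases before each start, and a gene with several starts has several windows. The median was 7.5 in the 34 windows of 23 genes with the larger rise in 129Sv. It was 9.5 in the 16 windows of 16 genes with the larger fall in B6, against 15 in the 13190 windows of all genes tested. The core of the DMRT1 motif, ACANTGT on either strand, was in 0 of the 34 and 0 of the 16 windows and in 3.54% of all windows. The E-box CACGTG was in 2 of 34 (5.88%) and 2 of 16 (12.5%) windows against 8.18%, and the E2F motif GCGGGAA in 1 (2.94%) and 1 (6.25%) against 6.78%. These are matches of letters in short windows of the B6-derived reference and not measured sites.

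Members of the gene lists showed where the uncalled differences leaned. Of 266 list members tested 12 were called, all with a positive difference, against 0.274% of all probe sets in that direction. The lists were chosen with earlier results of these data known, and each member is the probe set of highest mean of a named gene. These shares are therefore not like for like and partly reflect that choice, as do those of the single lists below. Over all probe sets 12301 differences lay above 0 and 12519 below.

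In the list for pluripotency and early germline, 25 of 28 differences were above 0, 2 were called and the median was 0.79. Nanog, a core pluripotency factor, rose in both strains, from 179, 157 and 119 to 1420, 1810 and 1410 in 129Sv and from 234, 296 and 179 to 962, 767 and 573 in B6, and its difference just missed the threshold (1.67 ± 0.32, adjusted p = 0.0533). Sox2, its partner, read 2030, 2200 and 1960 in 129Sv dmrt1 and 1020, 855 and 451 in B6 dmrt1, with wild types at 330, 338 and 213 and 318, 361 and 386 (1.79 ± 0.36, adjusted p = 0.0631). Lin28a, which blocks let-7 maturation, had 2.14 (adjusted p = 0.0578) and Eras, a Ras-like gene of embryonic stem cells, 3.28 (adjusted p = 0.0733). Pou5f1, the gene for Oct4, had 0.50 ± 0.30 (SE, adjusted p = 0.492). Of this list, 17 genes rose in 129Sv, where 2.74% of all probe sets did, and 12 in B6, where 1.17% did.

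For the piRNA pathway all 19 differences were above 0, 3 were called and the median was 0.88. Of these genes 12 fell in B6 (3.44% of all probe sets did) and 2 in 129Sv (2.51%). Piwil4, the nuclear PIWI protein of fetal germ cells, read 1870, 2260 and 3250 in 129Sv dmrt1 and 506, 367 and 1010 in B6 dmrt1, below 4280, 3860 and 4730 and 2920, 2770 and 3610 in the wild types (1.59 ± 0.41, adjusted p = 0.128). Its partner Piwil2 fell in B6 from 4010, 4310 and 5400 to 2120, 2280 and 1550 and read 5490, 5490 and 5350, then 3790, 4110 and 5130 in 129Sv (0.88 ± 0.21, adjusted p = 0.109). Tdrd9 fell in both strains (-2.13 and -3.56), with a difference of 1.42 ± 0.72 (SE, adjusted p = 0.414).

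DNA methylation genes split. Of 10 tested 2 were called, Dnmt3b and Morc1, 1 from each pattern, and the median was 0.42. Dnmt3l, the cofactor of de novo methylation, had the largest difference of the list but also the widest spread, reading 1890, 2270 and 2100 in 129Sv wt, 1030, 899 and 1760 in 129Sv dmrt1, 571, 711 and 1600 in B6 wt and 17.7, 25.9 and 110 in B6 dmrt1 (3.73 ± 0.77, adjusted p = 0.0638). Dnmt3a, the other de novo enzyme, had 0.46 ± 0.26 (SE, adjusted p = 0.468).

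Meiosis genes had no calls among 22 tested, 18 differences above 0 and a median of 0.73, with Sycp3, a synaptonemal complex protein, at 1.57 ± 0.30 (SE, adjusted p = 0.0543). For the prospermatogonial regulators the figures were 2 called of 15, 13 above 0 and a median of 0.78. In that list Zbtb16, a spermatogonial transcription factor, leaned the other way, reading 91.4, 99.8 and 118, then 40.6, 21.1 and 25 in 129Sv and 23.9, 19.6 and 26.6, then 12, 14.6 and 20.4 in B6 (-1.28 ± 0.38, adjusted p = 0.182). Of the primed epiblast and germ layer genes 8 were tested and 0 called, with 6 differences above 0, 2 below and a median of 0.59. Otx2, a factor of the anterior epiblast, rose in both strains and had 2.22 ± 0.55 (SE, adjusted p = 0.111). Afp fell in both strains, by -1.63 in 129Sv and -3.88 in B6, and had the largest difference of the list (2.24 ± 0.45, SE, adjusted p = 0.0634). The Nodal list had 0 of 17 and a median of 0.08, or -0.01 without B6 dmrt1 replicate 1. Both the GDNF and the retinoic acid lists had 1 call, Pou3f1 and Crabp2, with medians of 0.00 and -0.13 over 11 and 15 genes, the latter 0.05 without 129Sv dmrt1 replicate 1 and with no call left without 129Sv dmrt1 replicate 3, 129Sv wt replicate 1, B6 dmrt1 replicate 2, or B6 wt replicate 2 or 3. No call came from the lists for DM domain genes (5 tested), cell cycle (23), p53 and apoptosis (12), mesonephros and ducts (4) or neuron and skeletal muscle (6).

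Without B6 dmrt1 replicate 3, the array of the highest Actb ratio, 18 list members were called, and the medians were 0.53 for pluripotency, 0.74 for piRNA, 0.46 for meiosis and 0.51 for prospermatogonial genes. The pluripotency list had 5 calls without B6 dmrt1 replicate 1 or B6 wt replicate 1 and 4 without B6 dmrt1 replicate 3. The piRNA list had 1 call, Gtsf1, in place of 3 without 129Sv dmrt1 replicate 2 or 3, 129Sv wt replicate 1 or 3, or B6 wt replicate 2 or 3. For DNA methylation 1 call was left, Dnmt3b, without 129Sv wt replicate 1 or 3, B6 dmrt1 replicate 2 or B6 wt replicate 3.

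**Figure D4:**
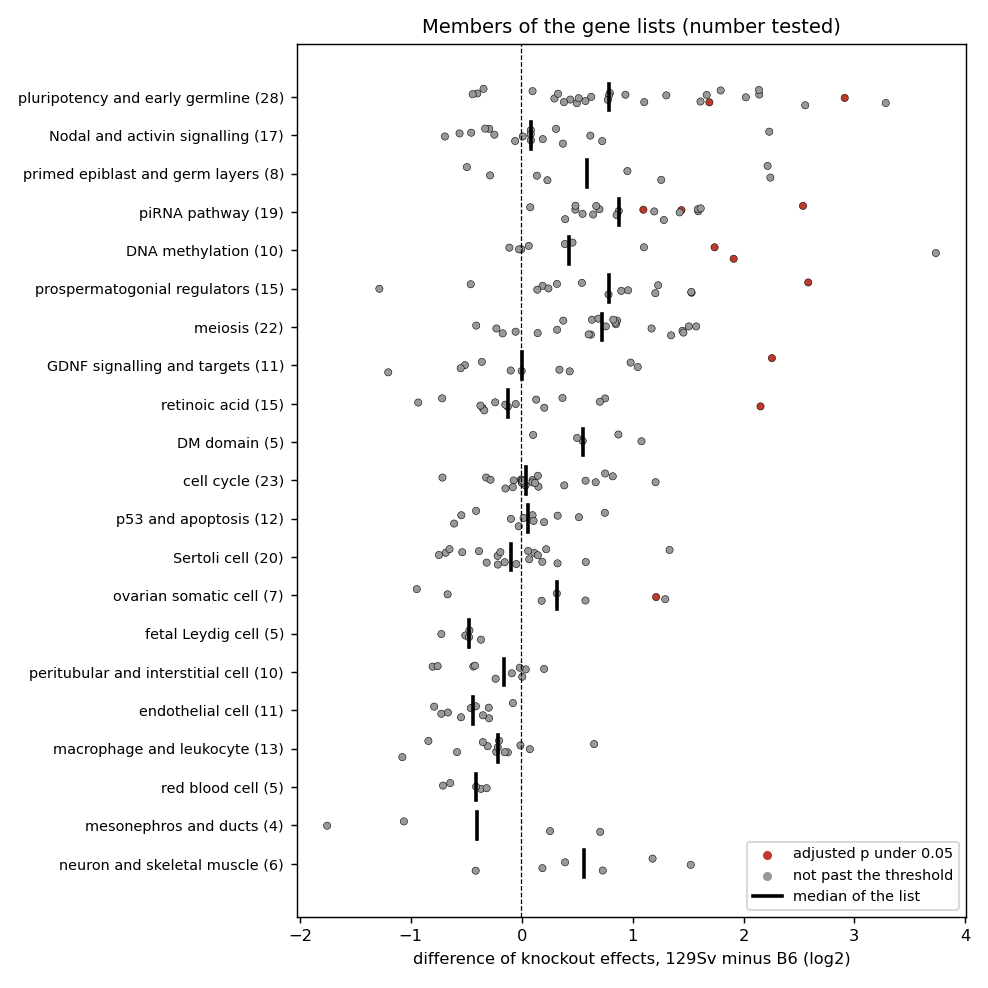
Each point is the difference of effects (129Sv minus B6, log2) of 1 list member, by list, with the number tested in brackets, the list median as a bar and genes past the threshold in red. The piRNA members all lie above 0 and the 11 endothelial members all below.

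Most changes were not shown to differ between strains. The knockout changed 1301 probe sets (5.24%) in 129Sv, 679 upward (2.74%) and 622 downward (2.51%), and 1144 (4.61%) in B6, 291 upward (1.17%) and 853 downward (3.44%). Of the probe sets, 118 rose in both strains (17.4% of the 679 that rose in 129Sv and 40.5% of the 291 that rose in B6), and 3 of these had a called difference. A further 280 fell in both (45% of the 622 that fell in 129Sv and 32.8% of the 853 in B6), with 2 called. Among the 897 called in 129Sv but not in B6, 33 had a called difference, and among the 740 called in B6 but not in 129Sv, 30. The 6 probe sets called in both strains with opposite directions were all called, which this selection largely fixes, since both effects come from the same fit. For 53 of the 118 and 84 of the 280, the 95% interval of the difference lay within 1 log2 unit of 0, a 2-fold change.

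Some estimated effects were close to equal. Ret, the receptor of GDNF, fell in 129Sv from 47.2, 46.4 and 41.4 to 17.1, 13.4 and 14.2 and in B6 from 13.1, 18 and 13.2 to 4.26, 5.07 and 5.17, with effects of -1.60 in both and a difference of 0.00 (95% interval -0.62 to 0.62). Its wild-type level was higher in 129Sv, and the B6 group means both lie under an intensity of 16, so the B6 effect is a change below the floor and the equality rests on it. Tcl1, an early embryonic gene, rose from 125, 145 and 120 to 466, 451 and 476 in 129Sv and from 94.7, 98.1 and 85.7 to 303, 384 and 256 in B6 (0.10, interval -0.40 to 0.60). Cst9, a Sertoli cell cystatin, fell by 1.20 and 1.35 on the log2 scale, and Dmrt3, a relative of Dmrt1, rose by 1.92 and 1.82, with differences of 0.15 ± 0.12 and 0.10 ± 0.33 (SE).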

How the data were processed

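Per the submitters' processing notes the authors used GCRMA, which corrects background by probe sequence, and deposited 1 intensity for each probe set. No source used here gives the GCRMA version or settings. The intensities are linear, so log2 was taken. Genes came from the platform annotation, with symbols updated through RefSeq. The interaction was a contrast of 4 group means over the 12 arrays, estimated in R 4.3.3 by limma 3.58.1 (lmFit and eBayes with trend, with 8 residual and 5.28 prior degrees of freedom) and given Benjamini-Hochberg adjustment over 24820 probe sets. The script was tested on simulated data. Errors are standard errors unless marked SD. Folds against a group mean under a log2 of 4 are computed against 4 and given as "at least".

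The rule for named genes took Dmrt1, up to 15 called genes in each direction with the largest difference and a mean log2 of at least 5 in the highest group, up to 6 called genes with opposite effects past the threshold in both strains, up to 6 in each direction with such effects of the same sign, called members of 21 gene lists, and list members called in a knockout effect. A list member is represented by its probe set of highest mean. The members and lists were chosen with earlier results of these data known. The X chromosome count, the probe set without a gene name, and Ddx4, Dazl, Sox9, Amh, Pou5f1, Dnmt1, Dnmt3a and Uhrf1 were picked after their values were seen. Arrays give no depth, and 3 per group limit the precision.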

Additional observations from a re-analysis of the deposited data

Results flagged for a closer look

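The knockout effect differed between 129Sv and B6, by the test of the difference itself (limma, adjusted p under 0.05), for 74 probe sets. Each value here is the difference of effects on the log2 scale, 129Sv minus B6. Named genes with a larger rise in 129Sv had Cdhr1 3.61, Sox3 3.10, Zic5 2.99, Oit1 2.97, Zfp42 2.91, Gtsf1l 2.73, Trh 2.46, Gbp3 2.37, Pou3f1 2.26, Crabp2 2.15, Dnmt3b 1.91, Pdzk1 1.85, Fbxo15 1.69, Skor1 1.64 and Lef1 1.21. Named genes with a larger fall in B6 had Gm364 3.31, AU018091 3.02, Tktl1 2.86, Spag16 2.71, Dcaf8l 2.62, Rhox13 2.58, Gtsf1 2.54, Magea5 2.41, Foxq1 1.80, Morc1 1.74, 4930550L24Rik 1.72, Taf7l 1.53, Tdrd5 1.44 and Asz1 1.10. Named genes with a larger effect downward in 129Sv or upward in B6 had Rph3a -2.45, Klrb1a -2.32, Zfyve27 -1.51, Kcp -1.49 and C1qtnf12 -0.94. Groups of 3 arrays are too small for the check on single outlying arrays.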

How the results depend on the processing

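The 74 called probe sets kept the sign of their log2 difference under every refit in which they were tested, and 71 kept it in linear intensity, where Morc1, Tktl1 and Nlrp14 reversed. The count stayed within 1.5 times of 74 under no filter, a filter at a log2 of 6, the mean of a gene's probe sets, quantile normalization, median centring, no variance trend, a minimum difference of 1, a random block for the number shared between titles, and the Actb ratio as a covariate. It was 177 with values floored at a log2 of 4, 167 of 12726 genes with 1 probe set per gene, 1358 with array weights, 124 without the 2 arrays of the highest Actb ratio, and 34 to 141 with 1 array left out. With the number before the strain code in the titles as a covariate it was 16, all among the 74. That number is 11 on 129Sv wt replicates 1 and 3 and 7 on replicate 2 and on all 129Sv dmrt1 arrays, so the 129Sv effect then rests on a single wild-type array. With the replicate number as a block 72 were called, 53 of them among the 74. The deviations of arrays with the same replicate number had correlations of -0.511 to 0.203 over 18 pairs (median -0.08). With groups of 3 arrays, these values cannot decide whether the replicate numbers pair the samples. In B6, the wt and dmrt1 arrays of replicate 1 share a number in their titles, and so do those of replicate 2. This is the number used as the random block above. The correlations of these 2 pairs were 0.108 and -0.241. The title of B6 wt replicate 3 carries neither this number nor one before the strain code, unlike the other arrays, and no source used here says why. It was treated as a block of its own in the random block fit, and as not 11 in the covariate fit. The Dmrt1 difference of effects passed with 1 probe set per gene (1.08, adjusted p = 0.045) and with array weights (1.25, adjusted p = 0.00477), and was 0.98 to 1.23 with 1 array left out. Of the 34 named genes with a call, 7 kept it in all alternatives (Cdhr1, Gm364, AU018091, Zic5, Oit1, Gtsf1 and Dnmt3b), 25 lost it under the title covariate (10 of them under that alone), and 16 lost it without at least 1 array. The called list members numbered 12, and 18 without B6 dmrt1 replicate 3. The choices on filters and probe sets were applied to Dmrt1 and the named genes after the data were seen. Probe sets near an intensity of 16 carry little signal. Another number, at the end of each title, is 1 to 3 for B6 dmrt1, 4 to 6 for B6 wt and 7 to 12 for 129Sv, and no source used here explains it. If it is an order of processing, that order and the groups cannot be told apart.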
